A study of Mus musculus with 10 samples.

Results

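The genes described here are Bdnf, which encodes a neurotrophin, and 8 receptor genes for growth and survival factors of retinal ganglion cells: Ntrk2, Ntrk3, Ngfr, Ret, Gfra1, Gfra2, Igf1r and Sorcs1. They were chosen by symbol, for their known roles and with earlier results of these data known. They make up 9 of the 34254 genes in the matrices. Their RNA was measured by droplet single-cell sequencing of retinal ganglion cells (RGCs) from wild-type mice of strain 129S1/SvImJ, 12 weeks old, of both sexes according to the labels. The 6 uninjured libraries came from mice without injury, and the 4 injured libraries from mice 2 weeks after optic nerve crush (ONC), a lesion that severs RGC axons. Each batch pooled 10 retinas, and RGCs were captured with antibodies to Thy1 after macrophages and amacrine cells had been depleted. About 6000 cells per batch were loaded, so the unit compared is a pool of animals and not a mouse.

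Neurotrophins are secreted proteins that bind Trk receptor tyrosine kinases with high affinity and the p75 receptor with lower affinity. BDNF signals through TrkB, and NT-3 mainly through TrkC. Ligands of the GDNF family bind a GFRα protein on the cell surface, and the complex then activates the receptor kinase RET. IGF-1 acts through its own receptor kinase. These pathways share the Ras and ERK cascade and the PI3K and Akt cascade, and they are known for supporting RGC survival, with TrkB signalling in RGCs among the best studied.

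The uninjured libraries held 98, 103, 363, 651, 267 and 201 cells, and the injured libraries 338, 273, 527 and 471. Total counts of unique molecular identifiers (UMIs) ranged from 2839693 to 23180399 per uninjured library and from 4698799 to 8860536 per injured library. Median depth per cell was 20437 to 34337 UMIs without injury and 11257 to 14695 UMIs with it, so injured cells were shallower. All 3292 cell barcodes held at least 1 UMI of each of the 4 pan-RGC markers of the study. Levels are given as CPM, UMI counts scaled by TMM to a common library size. The 8 pan-RGC markers summed to 5797 to 8239 CPM before injury and to 4283 to 5436 CPM after it.

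Several libraries stood apart. Injured 3 and 4 shared 421 cell barcodes, out of 527 and 471. Their summed gene counts differed by a chi-square of 1.21 per degree of freedom, against 2.01 to 60.2 for other library pairs of a group. These counts were not thinned, so the chi-square also depends on the depth of the libraries. Their mean enters every comparison as a single sample, injured 3/4, which leaves 6 uninjured against 3 injured samples. Uninjured 5 and 6 resembled each other but differed from uninjured 1 to 4 with a chi-square of 29.5 to 60.2 per degree of freedom. Xist, an RNA made from the inactive X chromosome of female cells, was detected in 62.1% of injured 1 and 67.4% of injured 2 cells; elsewhere its share did not exceed 0.569%, although the labels name both sexes. Transcripts of the reporter mCherry marked 7.99%, 15.0%, 86.0% and 84.3% of cells in injured libraries 1 to 4 and none of the 1683 uninjured cells. Between samples, injury cannot be told apart from carriage of the reporter, and in injured 1 and 2 also not from sex. In injured cells without an mCherry UMI, Bdnf was 114, 115, 88.6 and 121 CPM in injured libraries 1 to 4. Ret was 130, 101, 181 and 158 CPM in the same cells. These levels are scaled by the summed UMIs of those cells without TMM, so they are not on the scale of the library levels. The part of the reporter was not tested. The p-values measure the spread between these samples and take them as independent, although libraries came in close pairs. With similar libraries summed, Bdnf (edgeR adjusted p 0.0169) and Ret (0.0124) were the only ones of the 9 genes called.

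Markers of other retinal cells also moved with injury. The summed level of 10 Müller glia markers was 207 to 273 CPM without and 345 to 523 CPM with injury. Clu, the most abundant, made up 67.7 to 126 CPM of it without and 195 to 335 CPM with injury. Of 9 tested Müller glia markers, 6 were called higher, 2 lower and 1 not at all. The summed level of 6 astrocyte markers was 245 to 787 CPM without and 56.8 to 61.8 CPM with injury. Most of it without injury was Aldoc, at 225 to 753 CPM, against 38.6 to 44.1 CPM with injury. Of 4 tested astrocyte markers, 1 was called lower and 3 were not called. The 10 amacrine markers summed to 546 to 675 CPM without and 396 to 529 CPM with injury. Pax6, which RGCs also express, was the most abundant in uninjured samples. It made up 300 to 354 CPM of the sum without and 76.3 to 121 CPM with injury. Of 9 tested amacrine markers, 2 were called higher, 2 lower and 5 not at all. The 8 bipolar markers summed to 80.2 to 136 CPM and 110 to 160 CPM, nearly all of it Prkca, and 1 to 5 of the 8 were at 0 in a sample. The 8 photoreceptor markers summed to 404 to 1053 CPM and 486 to 574 CPM, nearly all of it Gnb1. The 5 horizontal cell markers summed to 251 to 407 CPM and 199 to 215 CPM. Microglia markers reached 18.8 and 20.2 CPM, endothelial markers 6.54 and 5.61 CPM, and pericyte markers 3.68 and 0.537 CPM at most. The part of these cells in the results was not tested. Leaving out the cells that held 3 or more markers of another class is given below as an alternative. It cannot decide this, since RGCs express some listed markers, such as Pax6, and deeper cells can show more markers. It kept 13 to 106 cells of each uninjured library and 119 to 267 cells of each injured library.

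Of the 9 genes, 8 passed the filter on low counts and entered the edgeR fit across 14234 genes. After ONC, Bdnf, Ret, Gfra1 and Sorcs1 were higher, and Ntrk3 and Gfra2 were lower. Ntrk2 and Igf1r did not pass the threshold, an adjusted p of 0.05. Ngfr had too few UMIs to pass the filter and was not tested in this fit. Thus 6 of the 8 tested genes were called, 4 higher and 2 lower. Among all genes tested 44.0% were called, 21.3% higher and 22.7% lower, so a call in either direction was common. The groups did not overlap for 4 of the genes, with injured samples higher for Bdnf, Ret and Sorcs1 and lower for Ntrk3; the same held for 42.9% of all genes tested.

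**Figure D1:**
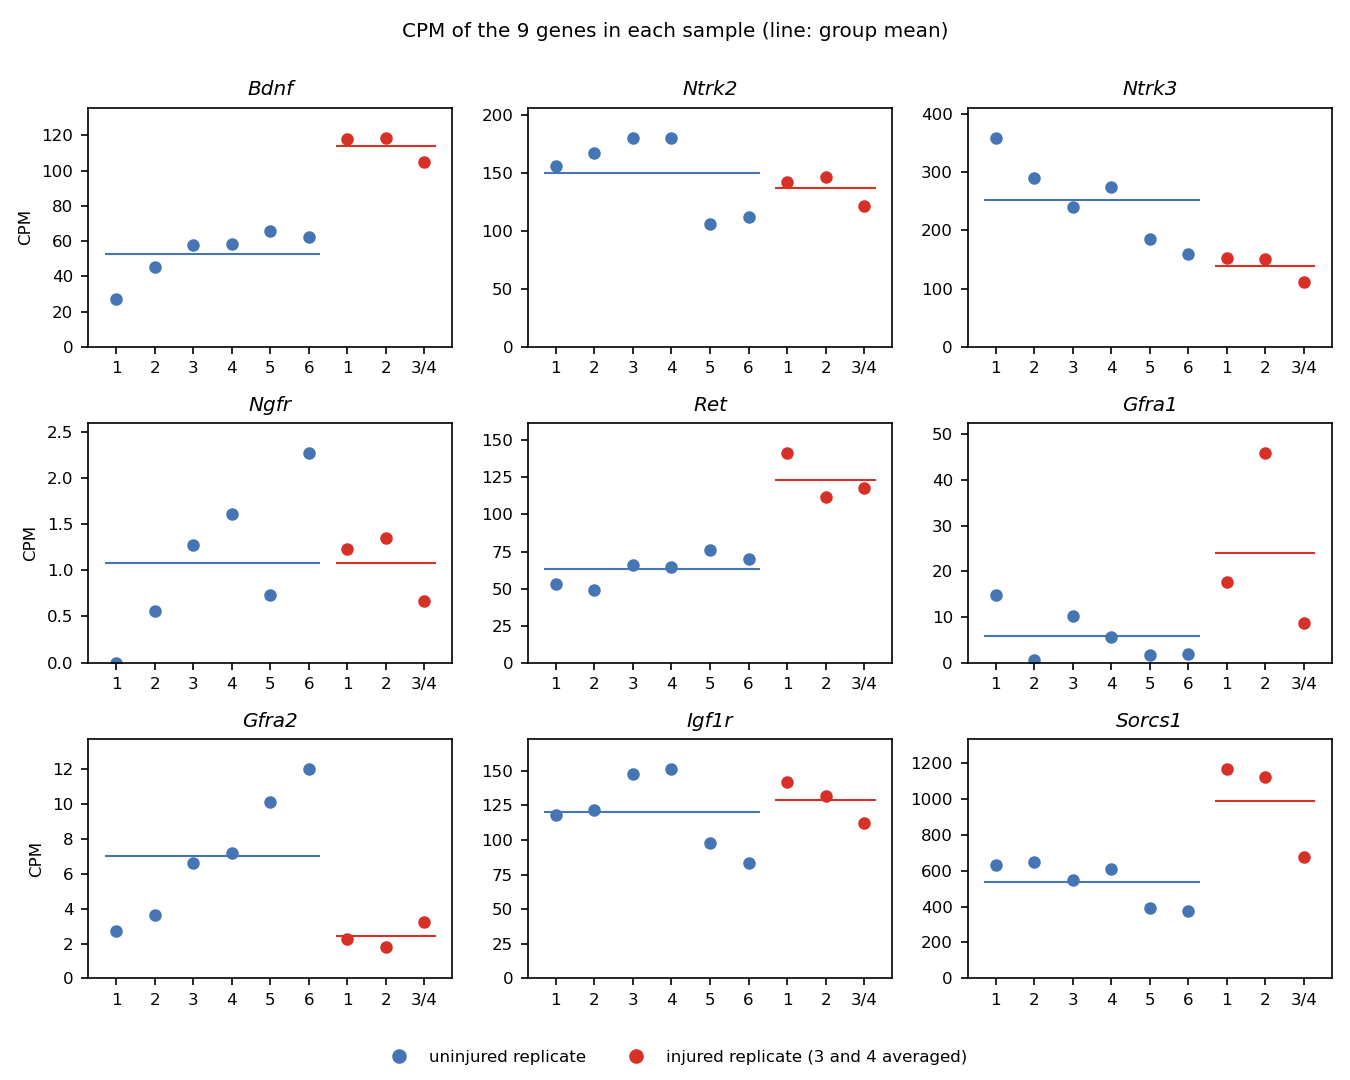
CPM (y axis, linear from 0) of the 9 genes in uninjured samples 1 to 6 and injured samples 1, 2 and 3/4 (x axis); each point is a sample and each line a group mean. The injured points of Bdnf, Ret and Sorcs1 lie above all uninjured points, those of Ntrk3 lie below, and the other genes overlap.

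The 1 ligand among the 9 genes is Bdnf (GRCm39 chr2:109505045-109557475, forward strand), which encodes brain-derived neurotrophic factor. Its level in the 6 uninjured samples was 27.0 CPM at the lowest, 58.1 at the median and 65.8 at the highest, and in injured 1, 2 and 3/4 it was 118, 119 and 105 CPM. All 3 injured samples stood above every uninjured sample, and uninjured 1 and 2 were the lowest. The edgeR log2 fold change was 1.10 (SE 0.22), or 2.14-fold, with an adjusted p of 0.00157 over all genes tested. Without the cells that held 3 or more markers of another class it was 1.98 (edgeR adjusted p 1.79e-06). With injured 1 and 2 left out it was 0.99 and no longer called, on a lone injured sample. Ntf3 and Ntf5, which encode further neurotrophins, had 8 and 1 UMIs in uninjured samples and at most 1 UMI in injured samples, and were not tested.

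Bdnf has several alternative promoters, and the counts do not tell which was used. The RefSeq promoter table (GRCm38.p6) held 12 windows for 6 of the 9 genes, 7 of them for Bdnf, and none for Ret, Ntrk3 or Gfra2. The 250 bases before each start were searched on both strands for 9 letter strings. Among all 32851 windows, TGACTCA was in 4.46%, TGACGTCA in 1.55%, TGACGT in 6.47%, TTGCATCA in 0.791%, CACGTG in 6.02%, GCGTGGGCG in 0.536%, GGGCGGG in 23.4%, CCCCGCCC in 16.1% and GCCCCGCC in 12.8%. TGACGT lies within TGACGTCA, GGGCGGG on the other strand lies within CCCCGCCC, and CCCCGCCC and GCCCCGCC overlap each other. TGACGT was in 1 of the 12 windows, GGGCGGG in 5, CCCCGCCC in 4 and GCCCCGCC in 1, and the other 5 strings were in none. The windows of Bdnf and Sorcs1 shown were picked after the matches were seen, as 1 window each for genes that rose together after ONC. The Bdnf window, chr2:109692186-109692435 on the forward strand, has in capitals the core of a cyclic AMP response element, TGACGT, read on the other strand, starting 36 bases before the transcript start. The Sorcs1 window, chr19:50678647-50678896 on the reverse strand, has in capitals a GC box, GGGCGGG, read on the other strand, starting 139 bases before the transcript start.
Bdnf: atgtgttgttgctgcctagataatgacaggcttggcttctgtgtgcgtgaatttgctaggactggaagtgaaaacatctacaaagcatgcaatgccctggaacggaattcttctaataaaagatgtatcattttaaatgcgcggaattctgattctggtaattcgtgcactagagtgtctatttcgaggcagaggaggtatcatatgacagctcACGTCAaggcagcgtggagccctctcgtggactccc
Sorcs1: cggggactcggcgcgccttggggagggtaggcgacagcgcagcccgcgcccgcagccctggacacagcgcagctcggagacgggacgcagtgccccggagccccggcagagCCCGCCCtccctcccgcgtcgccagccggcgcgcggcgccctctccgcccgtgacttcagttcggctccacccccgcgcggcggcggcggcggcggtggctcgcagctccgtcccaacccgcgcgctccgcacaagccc
These matches describe the letters and show no binding.

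Ntrk2 (GRCm39 chr13:58954176-59281784, forward strand) encodes TrkB, the receptor of BDNF. Its level was 106 CPM at the lowest, 162 at the median and 181 at the highest in uninjured samples, and 143, 147 and 122 CPM in injured 1, 2 and 3/4. The 3 injured samples lay between uninjured 5 and 6, the lowest of all, and uninjured 1 to 4, the highest. The edgeR log2 fold change was -0.14 (SE 0.19, 95% interval -0.56 to 0.29), with an adjusted p of 0.603. With uninjured 5 and 6 left out, an alternative added after the data were seen, the log2 fold change was -0.33 (edgeR adjusted p 0.0182), and with uninjured 3 and 4 left out it was 0.039. Leaving out cells with 3 or more markers of another class gave -0.46 (edgeR adjusted p 0.152). The counts are per gene, so the full-length receptor and the truncated form that lacks the kinase were counted together.

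Ntrk3 (GRCm39 chr7:77825707-78387760, reverse strand) encodes TrkC, the main receptor of NT-3. Its level was 160 CPM at the lowest, 257 at the median and 359 at the highest in uninjured samples, and 153, 150 and 111 CPM in injured 1, 2 and 3/4. All injured samples were lower than all uninjured samples, but uninjured 6, at 160 CPM, lay close to injured 1. The edgeR log2 fold change was -0.86 (SE 0.25, adjusted p 0.0144). Without the cells that held 3 or more markers of another class it was -0.59 (edgeR adjusted p 0.0890), and leaving out uninjured 1 and 2 gave -0.63 (0.0518). Against uninjured 5 and 6 alone, the means were 138 and 172 CPM, a log2 ratio of -0.32, and against uninjured 1 and 2 the log2 ratio was -1.23.

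Ngfr (GRCm39 chr11:95459638-95478561, reverse strand) encodes p75, the receptor shared by all neurotrophins. It was sparse in both groups, with 72 UMIs in the 6 uninjured samples and 18 in the 3 injured samples. Its level ran from 0 CPM in uninjured 1, where a count of 0 allows up to 1.06 CPM (3 UMIs), to 2.27 CPM in uninjured 6. In the injured samples it was 0.671 to 1.35 CPM, within the uninjured range. At 8000 UMIs per cell, 0 to 1.40% of uninjured cells and 0.248% to 0.797% of injured cells had a UMI of Ngfr. With no filter on low counts, its log2 fold change was -0.18 (edgeR adjusted p 0.836), and with similar libraries summed -0.23 (0.832). On so few UMIs, a difference in Ngfr between the groups could be missed.

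Partners and adaptors of p75 were better covered, and all 8 listed were tested. Nradd, a receptor homologue of p75, rose from 1.75 to 14.5 CPM (log2 fold change 3.01, SE 0.28), Maged1 from 207 to 382 CPM (0.88, SE 0.23) and Traf6 from 6.23 to 10.4 CPM (0.72, SE 0.21). Lingo1 and Rtn4r, which encode parts of the Nogo receptor complex, fell by 1.51 (SE 0.13) and by 0.86 (SE 0.25) on the log2 scale, from means of 110 and 20.9 CPM. Tnfrsf19 (0.84, SE 0.32, edgeR adjusted p 0.0538), Bex3 (-0.49, SE 0.30) and Arhgdia (0.49, SE 0.26) did not pass the threshold. In all, 3 were called higher and 2 lower (62.5%, against 44.0% of all genes tested).

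Sorcs1 (GRCm39 chr19:50131737-50667093, reverse strand) encodes a receptor of the VPS10 sorting family, whose members bind neurotrophin precursors and sort receptors between membranes. Its level was 375 CPM at the lowest, 578 at the median and 649 at the highest in uninjured samples, and 1165, 1123 and 674 CPM in injured 1, 2 and 3/4. The groups did not overlap, but injured 3/4 lay close to uninjured 2, while injured 1 and 2 were far above. In the edgeR fit the log2 fold change was 0.89 (SE 0.23), or 1.85-fold, with an adjusted p of 0.00874. With injured 1 left out it was 0.76 (edgeR adjusted p 0.0530), and with injured 1 and 2 left out 0.35 (0.521).

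The other 4 genes of the sortilin family moved the opposite way. Sort1, which encodes the co-receptor of p75 for proneurotrophins, fell from 82.2 to 31.8 CPM (log2 fold change -1.37, SE 0.18). Sorl1 fell from 122 to 32.3 CPM (-1.91, SE 0.16), Sorcs2 from 55.1 to 23.9 CPM (-1.21, SE 0.30) and Sorcs3 from 143 to 48.9 CPM (-1.55, SE 0.41). All 4 passed the edgeR threshold, with the injured samples below every uninjured sample, so 1 of the 5 was higher and 4 were lower. Of all genes tested, 44.0% were called, 22.7% of them all as lower, and 42.9% did not overlap between the groups. For Sorcs2 and Sorcs3 the gap was narrow, since uninjured 5 and 6 were low, at 31.0 and 70.2 CPM at the lowest, against an injured highest of 28.1 and 64.3 CPM.

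Ret (GRCm39 chr6:118128706-118174769, reverse strand) encodes the signalling kinase of the GDNF family receptors. Its level was 49.1 CPM at the lowest, 65.3 at the median and 75.7 at the highest in uninjured samples, and 141, 112 and 118 CPM in injured 1, 2 and 3/4. Every injured sample was well above every uninjured sample. In the edgeR fit the log2 fold change was 0.96 (SE 0.15), or 1.95-fold, with an adjusted p of 2.94e-04. Without the cells that held 3 or more markers of another class, which kept 13 to 106 cells of each uninjured library, it was 0.36 (edgeR adjusted p 0.180).

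Gfra1 (GRCm39 chr19:58223212-58444346, reverse strand) encodes the GFRα protein that binds GDNF. Its level was 0.561 CPM at the lowest, 3.68 at the median and 14.8 at the highest in uninjured samples, and 17.7, 45.8 and 8.73 CPM in injured 1, 2 and 3/4. Injured 2 was the highest of all, and injured 3/4 lay below uninjured 1 and 3, so the groups overlapped. By edgeR its log2 fold change was 2.03 (SE 0.68), or 4.08-fold, with an adjusted p of 0.0294. With injured 2 left out it was 1.19 (edgeR adjusted p 0.251), and with injured 1 left out 2.22 (0.0515).

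In some libraries a few cells carried most of the Gfra1 UMIs. Cells with at least 5 UMIs of Gfra1, a limit set after the values were seen, numbered 3, 0, 5, 4, 0 and 0 across uninjured libraries 1 to 6, and 9, 12, 5 and 3 across injured libraries 1 to 4. They held 76.2%, 78.4%, 53.2% and 37.3% of the Gfra1 UMIs of injured 1 to 4, and 84.1%, 65.9% and 36.3% of those of uninjured 1, 3 and 4. The single richest cell held 48 UMIs, in injured 2. With the richest cell of each library left out, the log2 fold change was 2.22 (edgeR adjusted p 0.0142). Of the 9, 12, 5 and 3 injured cells, 8, 9, 4 and 2 also held a UMI of Ret (injured 3 and 4 share cells), against 208 of 329, 146 of 261, 299 of 522 and 251 of 468 other cells. In uninjured 1, 3 and 4 it was 0 of 3, 4 of 5 and 4 of 4 such cells. The injured cells rich in Gfra1 were deeper than the other cells, with a median of 42408 against 14544 UMIs in injured 1.

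Gfra2 (GRCm39 chr14:71127472-71217280, forward strand) encodes the GFRα protein that prefers neurturin. Its level was 2.70 CPM at the lowest, 6.91 at the median and 12.0 at the highest in uninjured samples, and 2.28, 1.80 and 3.22 CPM in injured 1, 2 and 3/4. Uninjured 5 and 6 were the highest, and injured 3/4 lay above uninjured 1, so the groups overlapped at the low end. By edgeR its log2 fold change was -1.52 (SE 0.44, adjusted p 0.0151), on 392 and 45 UMIs. With injured 1 or 2 left out it was -1.46 (edgeR adjusted p 0.0611) and -1.36 (0.0661). Leaving out cells with 3 or more markers of another class gave -1.93 (edgeR adjusted p 0.0501), and thinning cells to 8000 UMIs gave -2.20 (0.00434).

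The remaining genes of this system moved in both directions. Gfra4, which encodes the persephin receptor, fell from 64.2 to 15.2 CPM (log2 fold change -2.06, SE 0.49, edgeR adjusted p 0.00494). Its injured samples lay within 14.9 to 15.7 CPM, while uninjured 5 and 6 stood above the other uninjured samples. Ncam1, which encodes an alternative GDNF receptor, rose from 584 to 1016 CPM (0.80, SE 0.13), and Sdc3 did not pass the threshold (0.41, SE 0.16, edgeR adjusted p 0.0556). Among the ligand genes, Artn (artemin) rose from 0.798 to 6.22 CPM (2.93, SE 0.37) and Gdf15 from 0.354 to 13.2 CPM (5.21, SE 0.46). Neither overlapped between the groups, which also held for 42.9% of all genes tested. Gdnf, Nrtn, Pspn, Gfra3 and Gfral had too few UMIs to be tested, Gdnf with 49 in uninjured and 11 in injured samples, and Nrtn with 59 and 1.

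Igf1r (GRCm39 chr7:67601518-67883416, forward strand) encodes the receptor kinase of IGF-1. Its level was 83.2 CPM at the lowest, 120 at the median and 151 at the highest in uninjured samples, and 142, 132 and 112 CPM in injured 1, 2 and 3/4. The injured samples lay inside the uninjured range, with uninjured 5 and 6 lowest and uninjured 3 and 4 highest. By edgeR its log2 fold change was 0.10 (SE 0.19, 95% interval -0.32 to 0.51), with an adjusted p of 0.713. With uninjured 5 and 6 left out its sign turned, to -0.081.

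The binding proteins hold IGFs outside the cell, and 4 of the 7 tested were called, 2 higher and 2 lower (57.1%, against 44.0% of all genes tested). Igfbp3 rose from 0.811 to 50.8 CPM (log2 fold change 5.80, SE 0.21, edgeR adjusted p 5.33e-09), and Igfbp6 from 0.604 to 19.9 CPM (4.62, SE 0.41). Igfbp5 fell from 19.0 to 4.98 CPM (-1.92, SE 0.30) and Igfbpl1 from 4.66 to 1.12 CPM (-2.03, SE 0.42). None of these 4 overlapped between the groups, which also held for 42.9% of all genes tested. Igfbp2 (0.26), Igfbp4 (-0.048) and Igfbp7 (-0.79) did not pass the threshold. Igf1 (-0.26, SE 0.20) and the insulin receptor gene Insr (0.18, SE 0.17) were not called, while Igf2r, which clears IGF-2, rose from 13.2 to 27.8 CPM (1.06, SE 0.14). Igf2 had no UMI, and Igfbp1 and Igfals had too few to be tested.

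**Figure D2:**
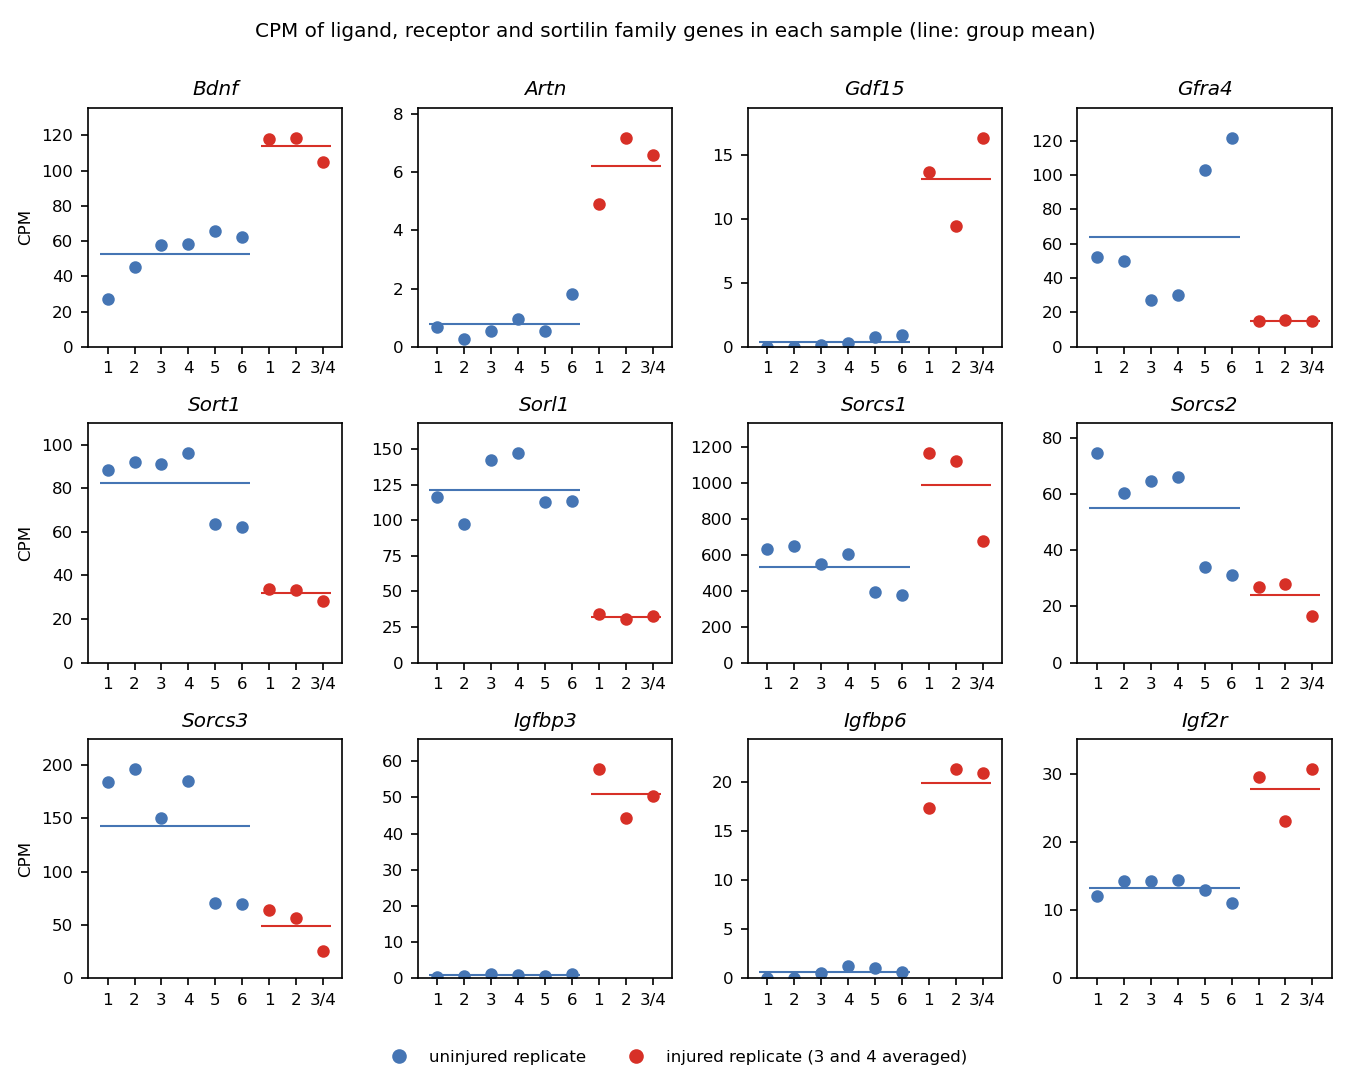
CPM (y axis, linear from 0) of Bdnf, Sorcs1 and 10 related ligand, receptor, sortilin and binding protein genes in each sample (x axis); each point is a sample and each line a group mean. Artn, Gdf15, Igfbp3 and Igfbp6 are near 0 in uninjured samples, and Sorcs1 is the sortilin family gene with injured samples above the uninjured ones.

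The changes of the 8 tested genes were computed under 32 alternatives beside the fit above, 1 of them in DESeq2, 1 in limma-voom and the others in edgeR, fewer for Gfra1 (30) and Gfra2 (31), which some filters removed. Bdnf and Ret were called in 31 of 32, Sorcs1 in 29, Ntrk3 in 27, Gfra2 in 25 of 31 and Gfra1 in 20 of 30, each in its direction throughout. Ntrk2 was called, as lower, in 3 of 32, among them the fits of libraries 1 to 4, which counted injured 3 and 4 as separate samples. The smallest adjusted p of Igf1r was 0.160. With injured 1 and 2 left out, Ret alone of the 6 genes was called (log2 fold change 0.90, edgeR adjusted p 0.0274). There injured 3/4 was the lone injured sample, assumed to vary like the others. An exact permutation test on log2 CPM over samples, two-sided, gave p 0.0238, the smallest that 6 against 3 samples allow, for Bdnf, Ntrk3, Ret and Sorcs1. It gave an exact permutation p of 0.0476 for Gfra2, 0.0714 for Gfra1, 0.619 for Ntrk2 and for Igf1r, and 0.881 for Ngfr.

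**Figure D3:**
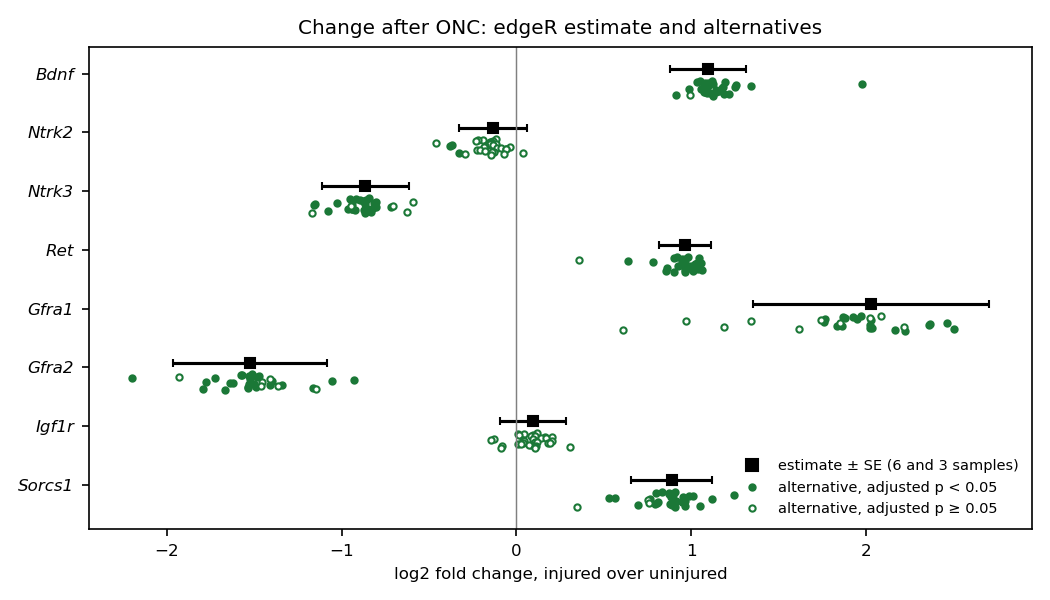
Log2 fold change, injured over uninjured (x axis), of the 8 tested genes (y axis): squares with bars are the edgeR estimate and its SE, and circles are alternatives, filled where the adjusted p was under the threshold. Bdnf, Ret, Gfra1 and Sorcs1 stay to the right of 0 and Ntrk3 and Gfra2 to the left, while Ntrk2 and Igf1r have circles on both sides.

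The share of cells with a UMI was compared at 1 depth, 8000 UMIs per cell, since injured cells were shallower. Of the uninjured libraries 95, 102, 360, 644, 253 and 200 cells were deep enough, and of the injured libraries 306, 251, 460 and 359. All p-values of shares are exact two-sided permutation p-values over 6 against 3 samples, for 9 genes, with no adjustment. How many of all genes separate by share of cells was not counted. By CPM, 42.9% of all genes tested did not overlap between the groups, so a separation alone is common.

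Bdnf had a UMI in 12.6% of uninjured cells at the lowest, 26.3% at the median and 32.8% at the highest, and the shares after ONC were 53.6%, 52.2% and 53.4% for injured 1, 2 and 3/4. The injured shares were nearly alike and far above all uninjured ones, a difference in means of 28.7 points (exact permutation p 0.0238). Ntrk3 had a UMI in 64.0% to 83.2% of uninjured cells (median 75.1%) and in 59.5%, 56.2% and 43.3% of injured cells, lower by 20.3 points, with no overlap. For Gfra2 the shares were 2.11% to 7.50% (median 5.27%) and 1.31%, 0.398% and 1.32%, again with no overlap. At 5000 UMIs its shares overlapped, at 0.971% to 5.00% without and 0.741% to 1.19% with injury (exact permutation p 0.0714).

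Ret had a UMI in 31.6% to 43.5% of uninjured cells (median 38.7%) and in 53.9%, 44.2% and 45.9% of injured cells. The gap between uninjured 5 and injured 2 was small, and the means differed by 9.51 points (exact permutation p 0.0238). Without thinning, the deeper uninjured cells had the larger share, 70.7% against 58.8%, so the direction for Ret rests on comparing cells at 1 depth. Gfra1 had a UMI in 0 to 5.26% of uninjured and 3.66% to 8.37% of injured cells, with overlap (exact permutation p 0.143).

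Sorcs1 was found in most cells of both groups, in 70.5% to 88.2% of uninjured and 73.7% to 85.7% of injured cells. Its shares overlapped (exact permutation p 0.476), whereas its CPM did not. Ntrk2 had a UMI in 44.5% to 74.5% of uninjured and 49.9% to 55.6% of injured cells (exact permutation p 0.310), and Igf1r in 41.5% to 66.6% and 49.2% to 58.5% (0.952). For both, the injured shares lay inside the uninjured range at this depth. At 5000 UMIs, Ntrk2 had a UMI in 41.8% to 58.1% of uninjured and 38.8% to 42.6% of injured cells (exact permutation p 0.0476). Without thinning, the injured shares of Ntrk2 and Igf1r lay below all uninjured ones. Among the related genes, Gdf15 went from at most 0.155% of uninjured cells to 7.57% to 12.5% of injured cells, and Gfra4 from 18.3% to 56.5% down to 11.8% to 12.4%.

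**Figure D4:**
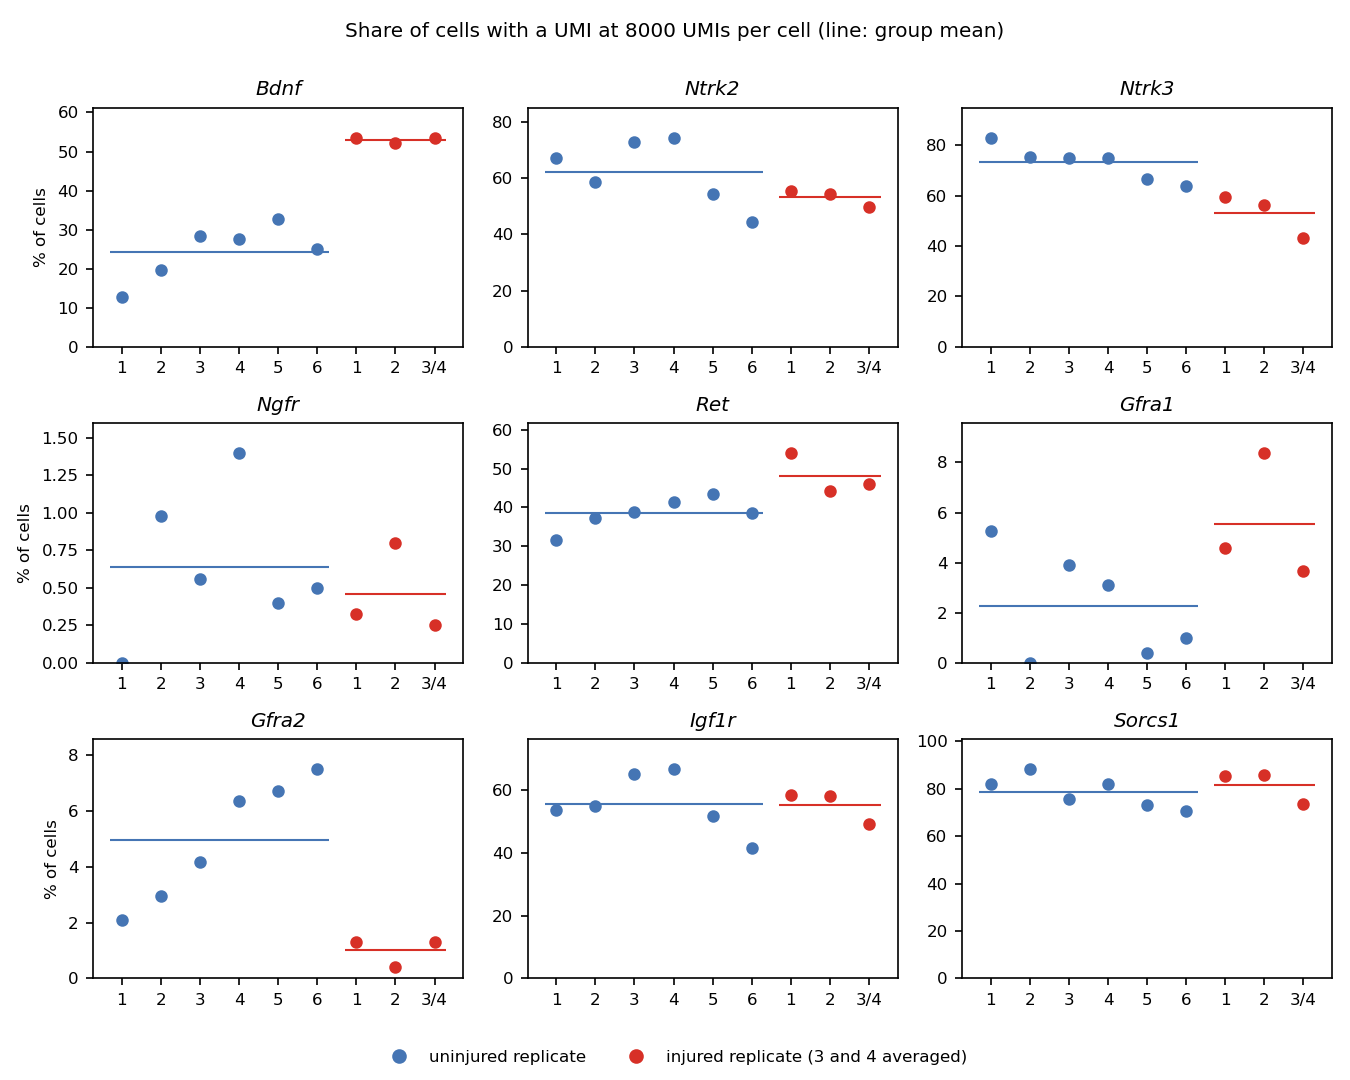
Share of cells with a UMI (y axis, %, linear from 0) of each of the 9 genes in each sample (x axis), with every cell thinned to 8000 UMIs; each point is a sample and each line a group mean. The groups separate for Bdnf, Ret, Ntrk3 and Gfra2 and overlap for the others. Separation by share was not counted over all genes, while by CPM 42.9% of all genes tested did not overlap.

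Receptor subunits act in 1 cell, so genes were also counted side by side in thinned cells, as a description with no test. Injured 3 and 4 are counted separately here although they share cells. In the injured libraries, 41 of 65 cells with Gfra1 also held Ret, which was 52.4% to 78.6% per library against 42.0% to 52.7% of cells without Gfra1. Ret was the more frequent beside Gfra1 in 4 of 4 injured libraries, and in 3 of the 5 uninjured libraries with such cells (16 of 42 cells). Beside Gfra2, Ret was found in 12 of 16 injured cells, a higher share than in the other cells in 4 of 4 libraries with 1 to 7 such cells each, and in 33 of 93 uninjured cells, higher in 2 of 6. Ntrk2 was found in 370 of 731 injured cells with Bdnf, which was 48.5% to 52.4% per library against 50.3% to 59.2% of cells without Bdnf, and in injured 3 the 2 shares were nearly equal. In uninjured cells with Bdnf it was 295 of 445, the higher share in 3 of 6 libraries. Ntrk2 beside Ntrk3 was found in 385 of 680 injured cells, 54.3% to 59.9% per library against 42.0% to 54.5% without Ntrk3, with nearly equal shares in injured 2. In uninjured cells it was 808 of 1207, the higher share in 3 of 6 libraries. Cells with Ngfr were too few to compare, with Ntrk2 in 5 of 14 uninjured and 2 of 5 injured cells.

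RGCs comprise many types, and levels of the 9 genes were compared between cells above and below a limit of a marker gene, within each sample. These gates are ranges of a gene and not cell types, and a cell may be in several. Cell numbers of gates add up injured 3 and 4, so a cell whose barcode is in both counts 2 times, while in the fits their mean is 1 sample. Each gate was fitted in edgeR with sample as a block and with p-values adjusted over all genes of that fit. The limit was 3 UMIs for Opn4, Eomes, Foxp2, Tbr1, Neurod2, Tfap2d and Zic1, and 10 UMIs per 10000 for Cartpt. A share of 15.8% of genes was called for Opn4, 13.1% for Eomes, 8.57% for Foxp2, 6.01% for Tbr1, 9.55% for Neurod2, 7.82% for Tfap2d, 12.1% for Zic1 and 10.3% for Cartpt. Cells with exactly 3 UMIs made up 11 of the 119 cells in the Opn4 gate, 26 of 139 for Eomes, 48 of 470 for Foxp2, 30 of 71 for Tbr1, 34 of 146 for Neurod2, 93 of 376 for Tfap2d and 4 of 82 for Zic1, over all libraries. Just outside, with 2 UMIs, were 23, 44, 45, 51, 45, 98 and 4 cells. The limit was also doubled, except for Tbr1 and Neurod2, where fewer than 3 libraries then had 5 cells inside. A gate for alpha RGCs, Spp1 with Kcng4, held at most 1 cell in a library and was not fitted.

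**Figure D5:**
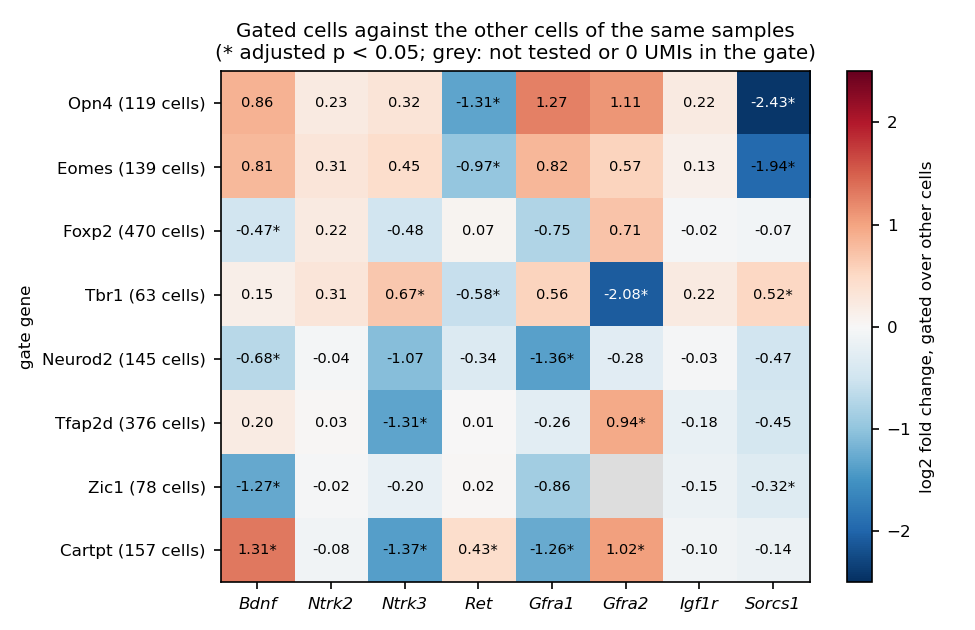
Log2 fold change of 8 genes (columns) in cells inside each gate over the other cells of the same samples (lines, with the number of cells inside), coloured from blue (lower) to red (higher). Asterisks mark an edgeR adjusted p under the threshold; Sorcs1 in the Opn4 gate is -2.43, and Bdnf in the Cartpt gate is 1.31.

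Opn4 encodes melanopsin, the photopigment of intrinsically photosensitive RGCs, and 2 of the genes were called in its 119 cells. Sorcs1 was 69.6 to 135 CPM inside the gate and 394 to 719 CPM outside it in uninjured samples, and 165 to 260 against 708 to 1237 CPM in injured samples. It was lower inside in all 9 samples, with a log2 fold change of -2.43 (SE 0.17, edgeR adjusted p 1.49e-09). In both groups the ranges inside and outside were far apart, and inside the gate every injured sample was above every uninjured sample. Ret was 0 to 44.2 CPM inside and 52.9 to 79.7 CPM outside in uninjured samples, and lower inside in all 9 samples (-1.31, SE 0.32, edgeR adjusted p 0.0177; limit doubled -2.41, 1.56e-05). In injured 1, Ret was 140 CPM inside and 144 CPM outside, so there the gap was small. In uninjured samples alone Gfra2 was called as well, as higher (1.37, edgeR adjusted p 0.0142; over all 9 samples 1.11, 0.0827).

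Eomes encodes a transcription factor that photosensitive RGCs need, and 139 cells were in its gate. Sorcs1 and Ret were lower there too, in all 9 samples each, with log2 fold changes of -1.94 (SE 0.40, edgeR adjusted p 0.0135) and -0.97 (SE 0.23, 0.0112; limit doubled -1.49, 0.0107). Sorcs1 inside the gate was 95.1 to 518 CPM in uninjured and 38.4 to 218 CPM in injured samples, against 392 to 728 CPM and 712 to 1250 CPM outside. In uninjured samples the ranges inside and outside thus overlapped, with uninjured 2 the highest inside, and the fit on uninjured samples alone gave -1.51 (edgeR adjusted p 0.0528).

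The Cartpt gate, a marker of direction-selective RGCs, held 157 cells of 4 uninjured samples, and 5 of the genes were called. Bdnf was 111 to 176 CPM inside and 47.8 to 58.5 CPM outside, higher in all 4 samples with a log2 fold change of 1.31 (SE 0.11, edgeR adjusted p 2.12e-10). Ntrk3 was 29.3 to 124 CPM inside and 177 to 290 CPM outside, lower in all 4 (-1.37, SE 0.14, edgeR adjusted p 1.46e-05). For both genes the ranges inside and outside did not overlap. Ret was higher, at 76.3 to 110.5 against 61.1 to 70.7 CPM (0.43, SE 0.10), and Gfra2 was higher, at 11.7 to 19.2 against 5.63 to 12.1 CPM, in 3 of the 4 samples (1.02, SE 0.23). Gfra1 was lower (-1.26, SE 0.40, edgeR adjusted p 0.0355), on 15 UMIs inside the gate.

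Tfap2d and Neurod2 encode transcription factors found in subsets of RGCs. In the 376 Tfap2d cells, Ntrk3 was 25.6 to 153 CPM in uninjured samples against 174 to 398 CPM outside, and lower in all 9 samples (log2 fold change -1.31, SE 0.21, edgeR adjusted p 0.00362). Gfra2 was higher in 7 of 9 samples (0.94, SE 0.25, edgeR adjusted p 0.0227), and with the limit doubled it was not called (0.86, edgeR adjusted p 0.180). In the 145 Neurod2 cells, all of 6 uninjured samples, Bdnf was 20.6 to 47.3 CPM against 27.2 to 65.6 CPM outside, lower in 5 of 6 (-0.68, SE 0.13, edgeR adjusted p 2.83e-04). Gfra1 was called lower (-1.36, SE 0.41, edgeR adjusted p 0.0272), on 19 UMIs inside the gate. All of these came from uninjured 3 and 4, at 2.53 and 4.32 CPM inside against 11.7 and 6.00 CPM outside, and the other 4 samples had 0 UMIs inside.

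Zic1, Foxp2 and Tbr1 encode transcription factors of further RGC groups. In 78 Zic1 cells of 4 uninjured samples, Bdnf was 15.2 to 31.1 CPM against 58.4 to 67.6 CPM outside, lower in all 4 with no overlap (log2 fold change -1.27, SE 0.19, edgeR adjusted p 8.01e-08). Gfra2 had 0 UMIs among the 2330661 UMIs of those cells, which allows up to 1.29 CPM, against 6.82 to 12.9 CPM outside. Sorcs1 was slightly lower (-0.32, SE 0.10, edgeR adjusted p 0.0160), and with the limit doubled it was not called (-0.28, edgeR adjusted p 0.0598). In 470 Foxp2 cells, Bdnf was lower in all 9 samples (-0.47, SE 0.11, edgeR adjusted p 0.00602; limit doubled -0.37, 0.0548), although the ranges inside and outside overlapped.

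In 63 Tbr1 cells of 5 uninjured samples, Ntrk3 was 264 to 459 CPM against 156 to 283 CPM outside, and higher in all 5 samples (log2 fold change 0.67, SE 0.14, edgeR adjusted p 5.58e-05). Sorcs1 was also higher in all 5 (0.52, SE 0.14, edgeR adjusted p 0.00368), while Ret was lower in all 5 (-0.58, SE 0.19, 0.0432). Gfra2 was called lower (-2.08, SE 0.67, edgeR adjusted p 0.0335), on 4 UMIs inside the gate. All came from uninjured 5, where Gfra2 was higher inside, at 25.6 against 9.72 CPM, and the other 4 samples had 0 UMIs inside. Ntrk2 came nearest to a call in the Foxp2 gate (0.22, SE 0.08, edgeR adjusted p 0.0932) and Igf1r in the Opn4 gate (0.22, SE 0.13, 0.267).

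The share of cells inside several gates differed between the groups. The Neurod2 gate held 145 uninjured cells and 1 injured cell, the Zic1 gate 81 and 1, the Tbr1 gate 64 and 7 and the Cartpt gate 164 and 14, while the Opn4 gate held 57 and 62, with cells shared by injured 3 and 4 counted in each. Injured cells were shallower, and fewer cells of a type and less RNA of the marker per cell cannot be told apart. With cells of every gate left out, Bdnf, Ret, Ntrk3 and Sorcs1 were still called by edgeR, while Gfra1 (log2 fold change 1.74, adjusted p 0.0565) and Gfra2 (-1.41, 0.0948) were not.

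For each called gene, the genes with the most similar log2 CPM over the 9 samples were ranked by Pearson r, as a description. For Bdnf they were Lgals3 (r 0.986), Ptpn5 (0.982) and Inhbb (0.982), and for Ret they were Marchf6 (0.997), Prss12 (0.986) and Slc6a8 (0.984). For Sorcs1 they were Dcx (0.984), Farp1 (0.981) and Peli2 (0.975), and for Ntrk3 they were Reln (0.993), Alcam (0.991) and Grin2b (0.987). For Gfra1 they were Ncoa5 (0.967), Ptprt (0.963) and Nlk (0.951), and for Gfra2 they were Ttc19 (0.976), Gabbr1 (0.972) and Plekhb2 (0.970). The 9 samples share the injury contrast and the library groups described above, so a high r holds no more than that.

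Downstream of the receptors, genes moved in both directions. Of 25 tested adaptor and substrate genes, 9 were higher and 4 lower (52.0%, against 44.0% of all genes tested), with the docking gene Dok5 at a log2 fold change of 1.73 (SE 0.14), Shc2 at 1.64 (SE 0.14), Irs2 at 1.11 (SE 0.16) and Gab2 at 1.07 (SE 0.17). Of 28 genes of the PI3K, Akt and mTOR list, 8 were higher and 4 lower, and the share called, 42.9%, was near that of all genes tested. Eif4ebp1, a translation repressor that mTOR inactivates, rose from 1.16 to 55.0 CPM (5.57, SE 0.18), Pik3cb rose (1.61, SE 0.14), Akt2 rose (1.08, SE 0.12) and the regulatory subunit gene Pik3r3 fell from 128 to 51.3 CPM (-1.32, SE 0.12). Of 21 genes of the Ras and ERK list, 5 were higher and 4 lower, likewise 42.9%, among them Nras (1.54, SE 0.14), Rps6ka3 (1.33, SE 0.13), Mapk3 (0.87, SE 0.20) and Map2k1 (-1.06, SE 0.25).

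Of 16 tested genes of ERK feedback or known to be induced by neurotrophins, 7 were higher and 6 lower (81.2%). Vgf, which encodes a secreted neuropeptide precursor, rose from 34.0 to 283 CPM (log2 fold change 3.02, SE 0.36), the feedback inhibitor gene Spry2 rose from 7.34 to 40.9 CPM (2.56, SE 0.56) and the immediate early gene Egr1 rose from 28.2 to 129 CPM (2.24, SE 0.36). Nr4a1, another immediate early gene, fell from 15.9 to 3.13 CPM (-2.27, SE 0.26). Of 20 genes for neurotrophin processing and receptor endocytosis, 7 were higher and 4 lower (55.0%). Plat, the tissue plasminogen activator of the cascade that cleaves proBDNF, rose (1.70, SE 0.17) and so did the endocytic gene Ehd4 (2.34, SE 0.17), while the protease gene Mmp9 fell from 38.8 to 2.18 CPM (-4.17, SE 0.33) and Slitrk5, which encodes a TrkB co-receptor, fell (-1.41, SE 0.14). Over all the lists, 84 of 147 tested genes were called by edgeR, 50 higher and 34 lower (57.1%), with a median log2 fold change of 0.20, against 44.0% and -0.030 for all genes tested. The lists overlap the 9 genes described above and were likewise chosen with earlier results of these data known.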

How the data were processed

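The deposited matrices hold raw UMI counts per gene and cell, made by the authors with Cell Ranger 7.0.1 per the labels. The study's methods describe RGCs that the authors had selected. The number of injured RGCs given there differs from the 1609 injured barcodes in the matrices. No cell was removed here, and doublets were not sought (the deepest cell held 122182 UMIs). Counts were summed per library, and injured 3 and 4 were averaged and rounded. Changes were tested with edgeR 4.0.16 (filterByExpr, TMM, robust quasi-likelihood F test) over all genes that passed the filter, with Benjamini-Hochberg adjustment at 0.05; SEs are the log2 fold change over the root of F. Shares used cells thinned to 8000 UMIs and an exact two-sided permutation test (scipy 1.17.1). An adjustment of these over the 9 genes had been planned and was dropped. An exact permutation p of 0.0238 for a share, the smallest that 6 against 3 samples allow, takes no account of the number of genes. Log2 CPM used a pseudocount of 0.1 CPM for permutation. Floors are 3 counts and cover counting error only. The members and lists were chosen with earlier results of these data known. Genes named beside the 9 are tested genes of the ligand, receptor, sortilin, p75 and binding protein lists (not all are given), up to 4 called genes with the largest changes in each other list (average log2 CPM at least 3), and the 3 most similar genes of each called member. Alternatives were DESeq2 1.42.0, limma-voom 3.58.1, other scalings, filters, cell selections and left-out libraries. The pipeline was tested on simulated counts of independent samples, without the close library pairs seen here. For 6 against 3 samples it recovered 37.8% of 2-fold and 100% of 4-fold changes, and 6% of calls were false. For gates it recovered 62.6% and 99%, with 8.67% of calls false. A change of about 2-fold can thus be missed.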

Additional observations from a re-analysis of the deposited data

Results flagged for a closer look

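Igf1, the ligand gene of Igf1r, was 47.2 CPM in uninjured 1, far below the median of 83.8 CPM in the other 5 uninjured samples. It was 1 of 47 groups of 6 uninjured values examined for a sample far from the rest, and chance marks about 1 in 20 such groups. Transcripts of the reporter mCherry lie outside the comparisons of injured with uninjured samples made here. Their share of cells was 7.99% in injured 1, 15.0% in injured 2, 86.0% in injured 3 and 84.3% in injured 4, against 0% in each uninjured library. The part of the reporter in the results was not tested.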

How the results depend on the processing

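The injury change of each gene was computed again under 32 alternatives, of which those leaving out a pair of libraries, or the cell with the most UMIs of each gene, were chosen after seeing the data. Of 253 such values, 219 kept their direction and side of the threshold. Leaving out 1 library at a time, log2 fold changes ran from 0.99 to 1.16 for Bdnf, from -0.22 to -0.057 for Ntrk2, from -0.96 to -0.72 for Ntrk3, from 0.86 to 1.04 for Ret, from 1.19 to 2.36 for Gfra1, from -1.64 to -1.34 for Gfra2, from 0.0092 to 0.19 for Igf1r and from 0.76 to 0.97 for Sorcs1, with 4961 to 6420 genes and 70 to 89 list genes called. With injured 1 and 2 left out, which leaves fewer samples and a lone injured one assumed to vary like the others, Bdnf was 0.99 (adjusted p 0.0861), Ntrk3 -1.17 (0.0906), Gfra1 0.61 (0.739), Gfra2 -1.14 (0.301), Igf1r -0.090 and Sorcs1 0.35 (0.521), with 3160 genes and 51 list genes called.

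Pairing libraries 1 to 4 by number as a replicate block gave -0.37 (edgeR adjusted p 0.0202) for Ntrk2, 0.97 (0.242) for Gfra1, -0.93 (0.00961) for Gfra2 and -0.13 for Igf1r. Without the block the same libraries gave -0.38 (0.00425) for Ntrk2, 1.34 (0.154) for Gfra1, -1.05 (0.0105) for Gfra2 and -0.14 for Igf1r. These fits counted injured 3 and 4 as separate samples, although they share cells. The numbers do not pair libraries, since deviations of paired libraries correlated by -0.087, 0.0369, -0.0224 and -0.0986 over 5821 genes. With uninjured 5 and 6 left out, Ntrk2 was -0.33 (0.0182), Gfra1 1.62 (0.131) and Igf1r -0.081. Ntrk2 was 0.039 without uninjured 3 and 4, and Ntrk3 was -0.63 (0.0518) without uninjured 1 and 2 and -0.71 (0.0867) without injured 3 and 4. Without cells holding 3 markers of another class, Bdnf was 1.98 (1.79e-06), Ntrk2 -0.46 (0.152), Ntrk3 was -0.59 (0.0890), Ret 0.36 (0.180) and Gfra2 -1.93 (0.0501). Summing similar libraries gave -0.95 (0.0511) for Ntrk3, 1.85 (0.0529) for Gfra1, -1.46 (0.0725) for Gfra2 and 0.75 (0.130) for Sorcs1. Gfra1 was 2.08 (0.0666) by DESeq2, 2.03 (0.109) with no filter and 1.74 (0.0565) without gated cells, where Gfra2 was -1.41 (0.0948). The cause was not tested in any of these.

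Share differences, in points, ran with 1 library left out from 26.4 to 30.4 for Bdnf, -12.3 to -6.27 for Ntrk2, -23.5 to -18.3 for Ntrk3, -0.351 to -0.0290 for Ngfr, 6.56 to 11.4 for Ret, 1.84 to 3.86 for Gfra1, -4.53 to -3.45 for Gfra2, -3.09 to 1.93 for Igf1r (1.61 without uninjured 3, 1.93 without uninjured 4) and 0.898 to 4.88 for Sorcs1. At 5000 UMIs they were -10.2 (exact permutation p 0.0476) for Ntrk2, 0.165 for Ngfr, -1.74 (0.0714) for Gfra2 and 1.53 for Igf1r, and without thinning -23.9 for Ntrk2, -12.0 for Ret, -17.0 for Igf1r and -0.905 for Sorcs1.

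Of 177 gate values 159 were unaffected in direction and call. Calls were gained by Gfra2 in the Opn4 gate (1.37, adjusted p 0.0142, uninjured alone), Ntrk3 in the Foxp2 gate (-0.43, 0.0261, limit doubled; -0.53, 0.0479, at least 10 counts) and Ret in the Neurod2 gate (-0.37, 0.0427, at least 10 counts). Those that turned were not called: Igf1r (0.067 with the limit doubled, 0.10 in uninjured samples alone) and Sorcs1 (0.16, uninjured alone) in the Foxp2 gate; Ntrk2 (-0.000808, uninjured alone; -0.045 with at least 10 counts), Ret (-0.077 and -0.053, likewise) and Gfra1 (0.065, limit doubled) in the Tfap2d gate; Ret (-0.042, limit doubled; -0.030 with at least 10 counts) in the Zic1 gate. Depth limits Ngfr and the low counts of Gfra1 and Gfra2 inside gates.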

Other observations

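Within the injured libraries, levels of several of the 9 genes differed between cells with and without an mCherry UMI, a split chosen after the data were seen and given as values with no test. CPM here is scaled by the summed UMIs of these cells alone, without TMM factors, so it is not on the scale of the library levels. In injured 3, with 453 and 74 such cells, Ntrk2 was 97.6 CPM in cells with and 279 CPM in cells without mCherry. Sorcs1 was 614 and 1102 CPM there, Igf1r 99.9 and 227 CPM, Ntrk3 98.4 and 205 CPM, and Ret 106 and 181 CPM. Bdnf was 102 and 88.6 CPM in injured 3 but 105 and 121 CPM in injured 4, 104 and 114 CPM in injured 1 and 99.4 and 115 CPM in injured 2. Injured 4, which shares most of its cells with injured 3, had 106 and 245 CPM of Ntrk2 and 582 and 1200 CPM of Sorcs1. In injured 1, with 27 and 311 cells, Ntrk2 was 123 and 139 CPM and Sorcs1 1026 and 1131 CPM. In injured 2, with 41 and 232 cells, Ntrk2 was 155 and 136 CPM and Sorcs1 1382 and 1007 CPM. Ret and Ntrk3 were higher in cells with mCherry in both, with 190 and 130 CPM of Ret and 182 and 143 CPM of Ntrk3 in injured 1, and 133 and 101 CPM of Ret and 152 and 141 CPM of Ntrk3 in injured 2. So the gaps of injured 3 did not recur in injured 1 and 2 at that size, and those of Ret and Ntrk3 had the opposite sign there. Cells with mCherry were deeper, with a median of 14920 against 11788 UMIs in injured 3.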
